A study of Mus musculus with 12 samples.

Results

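Integrins are cell surface receptors built of an α and a β chain, and the 10 subunit genes described here are those that leukocytes use for cell-to-cell contact and for attachment to matrix: Itgam, Itgax, Itgal, Itga4, Itga5, Itgav, Itgb1, Itgb2, Itgb5 and Itgb7. They were chosen by name from the 21899 genes of the count table, which holds 26 integrin subunit genes in all, with no threshold on a measured value. The RNA came from BMDMs, monocytes grown from C57BL/6 bone marrow, and all 4 groups received M-CSF at 50 ng/ml and RANKL at 100 ng/ml, the cytokines that turn these cells towards osteoclasts. The MR group had these cytokines and no named compound. The dBRD9 group had in addition dBRD9, a bifunctional degrader of the bromodomain protein BRD9, the JQ1 group had JQ1, an inhibitor of the BET bromodomain family, and the DEX and iBRD9 group had the glucocorticoid dexamethasone together with iBRD9, a BRD9 bromodomain inhibitor. Each group had 3 libraries. DEX and iBRD9 were given together, so their parts cannot be told apart, and the age of the mice and the day of harvest are not in the labels.

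The β chain decides much of what an integrin can do. CD18, the product of Itgb2, pairs on leukocytes with CD11a (Itgal), CD11b (Itgam) or CD11c (Itgax), and these receptors bind ICAM proteins, the complement fragment iC3b and fibrinogen. The β1 chain (Itgb1) pairs with α4 (Itga4) to bind VCAM1 and fibronectin and with α5 (Itga5) to bind fibronectin. The αv chain (Itgav) pairs with β1, with β5 (Itgb5) to bind vitronectin, and with β3, the chain by which osteoclasts hold on to bone. The β7 chain (Itgb7) pairs with α4 on cells that home to the gut. RNA levels do not show how much of each pair is on the cell surface.

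Total counts per library were 14875951 to 18067758, of which the 10 genes took 0.346 to 0.373% outside JQ1 and 0.455 to 0.47% in JQ1. All 10 passed the filter on low counts, which left 11670 genes to test. Summed over 8 macrophage markers, the libraries held 17200 to 20300 CPM (counts relative to library size, scaled by the TMM method of edgeR) outside JQ1 and 35800 to 41100 CPM in JQ1, and of these Lyz2, Mertk, Csf1r and Adgre1 rose with JQ1 while Fcgr1, Cd14 and Cd68 fell. The 9 osteoclast markers summed to 163 to 199 CPM outside JQ1 and to 28.1 to 35.3 CPM in JQ1, and Calcr had no count in any library. Mitochondrially encoded genes took 1.71 to 2.43% of the counts outside JQ1 and 2.72 to 3.2% in JQ1, and their part in the JQ1 values below was not tested. A count of albumin, a liver transcript, was 738 to 1031 in MR library 3 and in all libraries of dBRD9 and JQ1 and 0 to 2 in the other 5 libraries. This division falls across the groups, so it is given below beside each member call that a term for it changed.

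Itgb2 was the most abundant of the 10 in every group, and its level rose 2.06-fold with JQ1. On the FPKM scale, which divides by gene length and so allows genes to be compared, the MR level of Itgb2 was 545 ± 1.33 (SD, n = 3), ahead of Itgb1 at 223 ± 5.86. Next in level were Itga5 at 48.7 ± 0.166 FPKM and Itgam at 44.1 ± 5.84 FPKM. Itgb7 at 28.1 ± 0.548, Itgb5 at 17.3 ± 1.1, Itgav at 16.5 ± 0.621, Itgal at 13.5 ± 0.535 and Itga4 at 12.6 ± 0.936 FPKM formed a middle range. Itgax was lowest, at 6.39 ± 0.48 FPKM. With JQ1 the order changed: Itgb5 moved to rank 3 at 41.6 ± 0.905 FPKM and Itgb7 from rank 5 to rank 7 at 14.3 ± 0.886 FPKM, while Itgax stayed last at 1.55 ± 0.0454 FPKM.

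**Figure D1:**
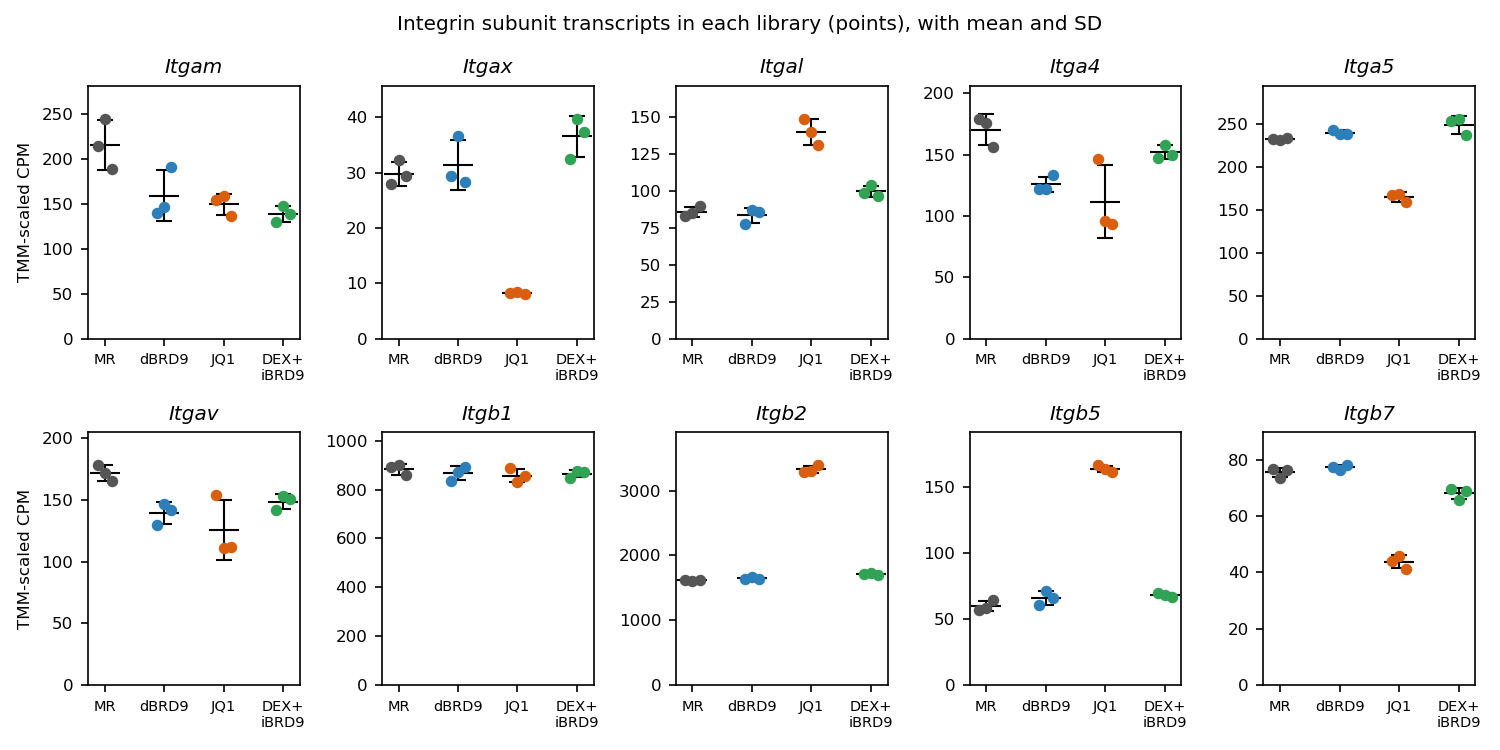
TMM-scaled CPM (vertical axis, from 0 in each panel) of the 10 integrin subunit genes in each of the 12 libraries (points), with the mean and SD of each group of 3. In JQ1, Itgb2, Itgb5 and Itgal lie above all other libraries and Itgax, Itgb7 and Itga5 below them, while Itgb1 overlaps between the groups.

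The genes for the α partners of CD18 lie on mouse chromosome 7 (GRCm39, GENCODE annotation). Itgam runs from 127661808 to 127717753 and Itgax from 127728668 to 127749829, both on the plus strand, with 10.9 kb and no protein-coding gene between them. Itgal (126895432 to 126934320, plus strand) lies 727 kb before Itgam with 40 protein-coding genes between. Itgb2 is at 77366086 to 77401542 on chromosome 10. The promoters of the neighbours Itgam and Itgax are shown because these genes lie side by side and differed in their response to JQ1, and those of Itgb5 and Itgb7 because they are the β chains that moved most in opposite directions. Each runs from 250 bases before to 50 bases after the gene's start (RefSeq, GRCm38.p6), and capitals mark, on either strand, the core of the site of PU.1, the myeloid transcription factor (GAGGAA), the GC box (GGGCGG) and the AP-1 site (TGANTCA).
Itgam, chr7:128062390-128062689, plus strand: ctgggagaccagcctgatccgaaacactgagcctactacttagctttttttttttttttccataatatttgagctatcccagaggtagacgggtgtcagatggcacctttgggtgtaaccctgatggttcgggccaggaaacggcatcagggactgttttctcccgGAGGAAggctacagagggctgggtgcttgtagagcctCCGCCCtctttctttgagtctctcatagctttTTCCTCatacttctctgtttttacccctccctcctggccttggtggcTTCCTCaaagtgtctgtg
Itgax, chr7:128129300-128129599, plus strand: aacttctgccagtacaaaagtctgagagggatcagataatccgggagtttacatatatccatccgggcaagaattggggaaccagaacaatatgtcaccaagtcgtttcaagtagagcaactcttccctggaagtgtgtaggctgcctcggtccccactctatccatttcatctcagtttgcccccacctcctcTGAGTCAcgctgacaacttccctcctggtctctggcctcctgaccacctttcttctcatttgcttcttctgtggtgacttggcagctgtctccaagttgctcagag
Itgb5, chr16:33829415-33829714, plus strand: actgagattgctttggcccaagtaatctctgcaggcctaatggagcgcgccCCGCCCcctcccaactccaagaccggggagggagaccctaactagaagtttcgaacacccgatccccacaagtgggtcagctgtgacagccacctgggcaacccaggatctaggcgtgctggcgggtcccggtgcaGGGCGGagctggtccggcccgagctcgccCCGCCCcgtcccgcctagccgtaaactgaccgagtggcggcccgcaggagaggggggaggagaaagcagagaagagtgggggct
Itgb7, chr15:102231886-102232185, minus strand: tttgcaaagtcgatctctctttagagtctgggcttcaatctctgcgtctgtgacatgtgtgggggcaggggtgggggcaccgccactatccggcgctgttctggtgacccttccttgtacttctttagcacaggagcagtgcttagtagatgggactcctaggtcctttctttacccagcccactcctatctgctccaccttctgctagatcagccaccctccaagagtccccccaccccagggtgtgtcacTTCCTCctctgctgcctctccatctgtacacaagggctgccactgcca

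The letters differ between the neighbours. Itgam held 3 copies of the PU.1 core and 1 GC box, and Itgax held neither but had 1 AP-1 site. Itgb5 held 3 GC boxes and no PU.1 core, and Itgb7 held 1 PU.1 core and no GC box. Of 32851 promoters of the same length, 28.3% held the PU.1 core, 35.7% the GC box and 7.81% the AP-1 site, and none of the motifs overlap in their letters. Of the 10 genes 8 had an entry, all but Itgal and Itgb2. Among these 8, the PU.1 core was also present in Itga5, Itgav and Itgb1, and the AP-1 site in Itgax alone. CpG dinucleotides, given as observed over expected, were at 0.32 in Itgam, 0.27 in Itgax and 0.22 in Itgb7, below the median of 0.38 over all promoters, and at 0.62 in Itgb5 and 0.80 in Itgb1, above it. These are descriptions of sequence and do not show that a factor was bound.

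JQ1 against MR asked what BET inhibition did to osteoclast induction. Of the 10 genes, 3 rose (Itgb5, Itgb2, Itgal), 6 fell (Itgax, Itgb7, Itga4, Itgam, Itga5, Itgav), and Itgb1 did not pass the test. Across all genes tested 61.6% passed in this comparison (30% higher and 31.6% lower, edgeR quasi-likelihood test, Benjamini-Hochberg adjusted p under 0.05), so a passing gene is common here and the sizes and directions carry more than the count. The libraries of JQ1 and MR lay wholly apart in 9 of the 10, against 63.4% of all genes. The median log2 fold change of the 10 was -0.48, against -0.012 over all genes.

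CD18 and the α chain of its lymphocyte-type form rose together. Itgb2 was at 1620, 1610 and 1620 CPM in MR and at 3290, 3310 and 3390 CPM in JQ1. Every JQ1 library was above every MR library, by 2.06-fold on average (log2 fold change 1.04 ± 0.045 SE, edgeR adjusted p = 3.8e-18, n = 3 per group). Itgal was at 82.9, 85.1 and 89.6 CPM in MR and at 149, 140 and 131 CPM in JQ1, again without overlap. The increase was 1.63-fold (log2 fold change 0.70 ± 0.066, adjusted p = 2.2e-10).

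The other α partners of CD18 fell. Itgax, which encodes the CD11c of dendritic cells and many tissue macrophages, was at 27.9, 32.2 and 29.3 CPM in MR and at 8.27, 8.34 and 8.03 CPM in JQ1. The libraries of each group lay close together and far from the other group, with a 3.63-fold decrease (log2 fold change -1.86 ± 0.12, adjusted p = 7.1e-14), the largest of the 10 in size. Itgam, whose product CD11b is a general marker of myeloid cells, was at 214, 244 and 188 CPM in MR and at 154, 158 and 136 CPM in JQ1. The groups did not overlap, but the spread in MR was wide. The decrease was 1.44-fold (log2 fold change -0.53 ± 0.12, adjusted p = 0.0026). With a term for the albumin division, in effect against MR library 3 alone, it was -0.33 and was not called. Itgam shares 3450 of its 5118 exonic bases with the predicted gene Gm49368 on the same strand, which held 0 to 5 counts per library. How reads in the shared bases were counted is not given. If they were left out, the Itgam levels, rank and FPKM shares would be too low, and the few Gm49368 counts cannot show otherwise.

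Markers of other cells moved in the same comparison. Summed over 8 dendritic cell markers the level was 2.32 to 3.54 CPM in MR and 0.926 to 1.75 CPM in JQ1, and Flt3, Ccr7, Cd209a and Siglech, at 0.0179 to 0.325 CPM in MR, were at 0 counts in JQ1. Of the 3 dendritic cell markers that could be tested, Xcr1 and Clec9a fell and Zbtb46 was at 1.02 CPM in JQ1 and 0.423 CPM in MR (adjusted p = 0.053). Summed over 9 neutrophil markers it was 165 to 178 CPM in MR, 183 to 203 CPM in dBRD9, 126 to 159 CPM in DEX and iBRD9 and 20.3 to 32 CPM in JQ1, with Ly6g at 0 counts outside MR and Camp at 0 in JQ1. The part of these cells in the levels of Itgax and Itgam was not tested. In bulk RNA, fewer cells of a type and less RNA per cell cannot be told apart.

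Among the β chains other than CD18, Itgb5 and Itgb7 parted. Itgb5, the vitronectin receptor chain (chromosome 16, 33649988 to 33771137), was at 57, 58 and 64.1 CPM in MR and at 166, 163 and 161 CPM in JQ1. The JQ1 libraries were 2.73-fold higher and lay apart from all others (log2 fold change 1.45 ± 0.068, adjusted p = 2.8e-17). Itgb7 (chromosome 15, 102124429 to 102140379, minus strand) was at 76.7, 73.7 and 76.4 CPM in MR and at 44.2, 45.8 and 41.3 CPM in JQ1. It fell 1.73-fold (log2 fold change -0.79 ± 0.069, adjusted p = 5e-11), so that Itgb5 was below Itgb7 in CPM in every MR library and above it in every JQ1 library. Itgb1, the common partner of the matrix-binding α chains, was at 893, 899 and 858 CPM in MR and at 887, 831 and 854 CPM in JQ1. The groups overlapped, and the log2 fold change of -0.04 had a 95% interval of -0.14 to 0.06 (adjusted p = 0.46). Scaling by total counts, which shifts the median log2 fold change of all genes to -0.198, put Itgb1 at -0.23 (adjusted p = 0.00017), close to that shift, and left the directions of the other 9 as they were. Under that scaling the calls over all genes split into 2216 higher and 5170 lower, against 3503 and 3687 with TMM.

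**Figure D2:**
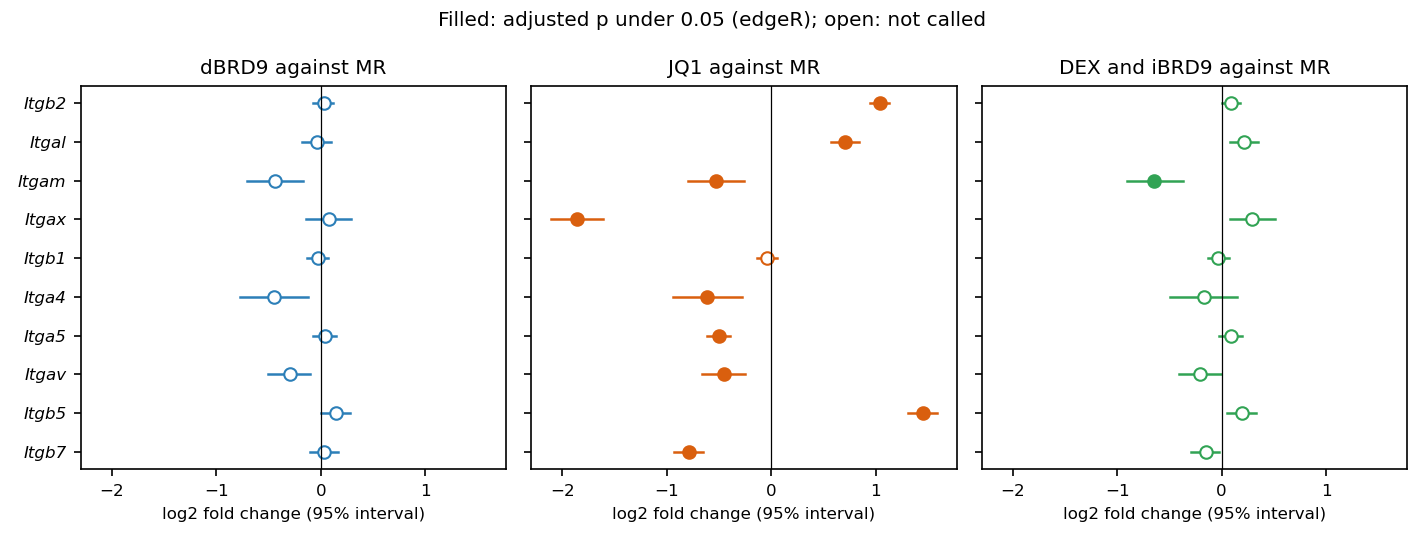
Log2 fold change (horizontal axis) of each of the 10 genes in dBRD9, JQ1, and DEX and iBRD9 against MR, with its 95% interval, 3 libraries per group. Filled points passed the edgeR test at an adjusted p under 0.05: none with dBRD9, 9 with JQ1, and Itgam alone with DEX and iBRD9.

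The fibronectin and vitronectin α chains were lower with JQ1, by smaller amounts. Itga5 (chromosome 15, 103252713 to 103275270, minus strand) was at 233, 232 and 234 CPM in MR and at 167, 169 and 159 CPM in JQ1. With replicates this close the 1.41-fold decrease (log2 fold change -0.50 ± 0.054, adjusted p = 4.3e-09) was well beyond their spread. Itga4 (chromosome 2, 79085660 to 79163467) was at 179, 176 and 156 CPM in MR and at 146, 95.9 and 93 CPM in JQ1. Itgav (chromosome 2, 83554403 to 83637260) was at 178, 172 and 165 CPM in MR and at 154, 111 and 112 CPM in JQ1. In both genes JQ1 library 1 stood above the other JQ1 libraries and below every MR library. The log2 fold changes were -0.61 ± 0.15 for Itga4 (adjusted p = 0.0043) and -0.45 ± 0.096 for Itgav (adjusted p = 0.00049), and without JQ1 library 1 they were -0.85 and -0.62. With a term for the albumin division, in effect against MR library 3 alone, Itga4 was at -0.48 and was not called.

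Itga4 and Itgav also have the longest transcripts of the 10, at 13978 and 10744 bases as implied by the counts and FPKM, which places them at the 96.6 and 91.9 percentiles of the tested genes. The 584 tested genes of at least 12480 bases, the longest 5%, had a median log2 difference of 0.23 between JQ1 library 1 and the mean of the other JQ1 libraries, where Itga4 was at 0.63 and Itgav at 0.47. In dBRD9 against MR their median was -0.13, in JQ1 against MR 0.03, and in DEX and iBRD9 against MR -0.02. The part of transcript length in the values of Itga4 and Itgav was not tested. Exons of Itga4 share 3481 bases with Cerkl on the opposite strand and exons of Itgav share 634 bases with the long noncoding RNA gene Gm13684, and as it is not given whether counting used strand, reads of these genes may be mixed.

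dBRD9 against MR asked what loss of BRD9 did. None of the 10 genes passed the edgeR test, in a comparison where 1.64% of all genes did (0.514% higher and 1.12% lower). An unadjusted p under 0.05 was reached by 3 of the 10, against 16.6% of all genes, and DESeq2 called 2, both lower, against 3.34% of all genes. These were the genes with the largest shifts. Itgam was at 139, 146 and 191 CPM in dBRD9 against 214, 244 and 188 CPM in MR, so that dBRD9 library 3 lay within the MR range (log2 fold change -0.44 ± 0.12, adjusted p = 0.11, DESeq2 adjusted p = 0.041). It was called without MR library 3 (-0.53, adjusted p = 0.036) or without dBRD9 library 3 (-0.60, adjusted p = 0.0024). Itgav was at 130, 147 and 142 CPM in dBRD9, below all MR libraries (-0.30 ± 0.095, adjusted p = 0.12, DESeq2 adjusted p = 0.033). Itga4, at 122, 122 and 133 CPM, was also below all MR libraries, by -0.44 ± 0.15 (adjusted p = 0.17).

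The calls on Itga4 and Itgav depended on which libraries set the spread. In a fit of the 6 libraries of dBRD9 and MR both passed (adjusted p = 2.6e-05 and 0.0011), as they did in a fit without JQ1 library 1 (6.5e-06 and 0.00067). With a term for the albumin division, dBRD9 is in effect set against MR library 3 alone. The log2 fold changes were then -0.24 for Itgam, -0.32 for Itga4 and -0.24 for Itgav, and none of these was called. The other 7 genes had log2 fold changes of 0.14 or less in size, with Itgb5 the largest of them at 0.14 ± 0.069 (adjusted p = 0.30). Libraries of dBRD9 and MR lay wholly apart in 4 of the 10 genes, against 25% of all genes.

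DEX and iBRD9 against MR asked what BRD9 inhibition did together with a glucocorticoid. Itgam alone passed of the 10, where 1.95% of all genes did (0.591% higher and 1.36% lower). It was at 129, 147 and 138 CPM against 214, 244 and 188 CPM in MR. Every treated library was below every MR library, by 1.56-fold on average (log2 fold change -0.64 ± 0.12, adjusted p = 0.021). The call was lost without MR library 1, JQ1 library 1 or any DEX and iBRD9 library (adjusted p = 0.073, 0.057, 0.076, 0.064 and 0.096), with fold changes of -0.60 to -0.69, and in a fit of the 9 libraries without JQ1 (0.067). With a term for the albumin division, in effect against MR libraries 1 and 2, it was -0.73 (adjusted p = 0.0058).

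Libraries of DEX and iBRD9 and of MR lay wholly apart in 8 of the 10 genes, against 25.1% of all genes, though most differences were small. Itgax was at 32.5, 39.7 and 37.4 CPM in DEX and iBRD9, with every library above the MR libraries (log2 fold change 0.29, adjusted p = 0.15). Itgal was at 98.5, 104 and 96.9 CPM and lay wholly above MR (0.22, adjusted p = 0.091; 0.027 without JQ1 library 1). Itgb5 was at 69.5, 68.3 and 66.7 CPM, above MR (0.19, adjusted p = 0.16). Itgb7 was at 69.5, 65.8 and 69 CPM and Itgav at 142, 153 and 151 CPM, both below MR (-0.15 and -0.21, adjusted p = 0.26 and 0.29; Itgav 0.018 without JQ1 library 1). A fit of the 6 libraries alone called 6 of the 10, 3 in each direction, where it called 1054 genes in all.

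Treatments were also set against each other. Of the 10 genes, JQ1 against dBRD9 gave 3 higher (Itgb5, Itgb2, Itgal) and 3 lower (Itgax, Itgb7, Itga5), where 63.2% of all genes passed (30.4% higher and 32.8% lower). In this pair Itga4, Itgav and Itgam differed by -0.17 ± 0.15, -0.16 ± 0.096 and -0.09 ± 0.12 on the log2 scale (adjusted p = 0.35, 0.17 and 0.55), and without JQ1 library 1 Itga4 and Itgav passed, at -0.41 and -0.33 (adjusted p = 1.6e-06 and 2.5e-05). JQ1 against DEX and iBRD9 gave 3 higher and 5 lower, where 61.7% of all genes passed (30.3% higher and 31.4% lower). There Itga4 (-0.44 ± 0.15, adjusted p = 0.024) and Itgav (-0.25 ± 0.096, adjusted p = 0.034) joined Itgax, Itgb7 and Itga5, and both missed the threshold without JQ1 library 2 (0.078 and 0.15), without JQ1 library 3 (0.073 and 0.15) or without DEX and iBRD9 library 2 (0.064 and 0.094), and Itgav also without DEX and iBRD9 library 3 (0.083). With a term for the albumin division neither was called, Itga4 at -0.26 and Itgav at -0.16. The JQ1 libraries and the DEX and iBRD9 libraries lie wholly on opposite sides of that division, so the term cannot decide these calls. DEX and iBRD9 against dBRD9 gave 1 higher, Itgal, where 2.36% of all genes passed (0.634% higher and 1.72% lower). Its log2 fold change was 0.25 ± 0.066 (adjusted p = 0.036). The call was lost without dBRD9 library 1 or 3 or any DEX and iBRD9 library (adjusted p = 0.066 to 0.23). With the albumin term the value was 0.35 and was not called. The groups of this pair lie wholly on opposite sides of the albumin division. The term can be separated from the pair only through MR, so this lost call says nothing about Itgal. These comparisons share libraries with those above and are not separate evidence.

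Ordered by CPM, the groups fell into a common pattern for Itgb2, Itgb5 and Itgal. JQ1 was highest and differed from the next group, DEX and iBRD9 (adjusted p = 3.5e-17, 7.1e-16 and 2.2e-07), while DEX and iBRD9, dBRD9 and MR did not differ between neighbours beyond the test. Itgax, Itga5 and Itgb7 had JQ1 lowest and apart from the group above it, MR for Itgax and Itga5 and DEX and iBRD9 for Itgb7, with no other neighbours called. For Itgam, Itga4 and Itgav the order began with MR, and no neighbouring groups differed by the test. For Itgb1 the means ran from 883 CPM in MR to 858 CPM in JQ1 and no neighbours differed.

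**Figure D3:**
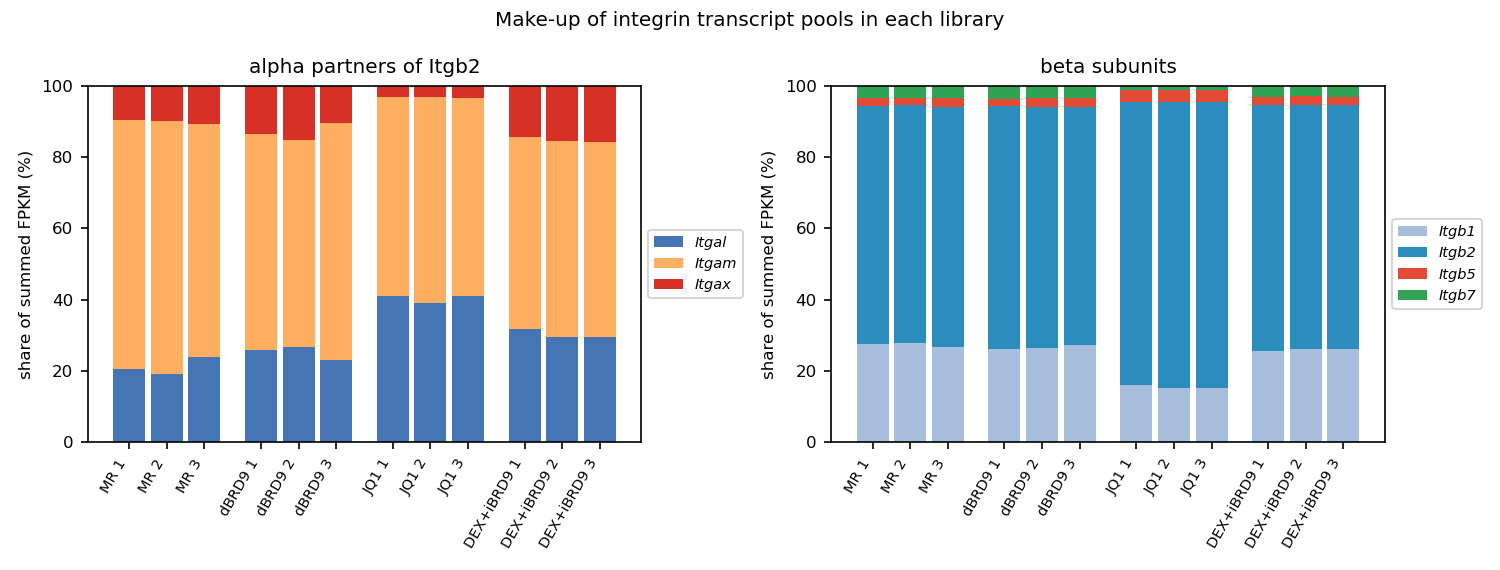
Share (vertical axis, percent of summed FPKM) of Itgal, Itgam and Itgax among the α partners of Itgb2, and of Itgb1, Itgb2, Itgb5 and Itgb7 among these 4 β genes, as stacked bars for each of the 12 libraries. In the JQ1 libraries Itgal holds 39.1 to 41.1% of the α pool, against 19 to 23.9% in MR, and Itgb2 holds 79.4 to 80.4% of the β pool, against 66.7 to 67.5%.

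Set against each other on the FPKM scale, the α transcripts that could pair with CD18 changed their proportions. In MR, Itgam made up 68.8% ± 3.02 of the summed FPKM of Itgal, Itgam and Itgax, Itgal 21.2% ± 2.49 and Itgax 10% ± 0.616 (SD, n = 3). In JQ1, Itgal was at 40.4% ± 1.11, Itgam at 56.3% ± 1.17 and Itgax at 3.25% ± 0.164. DEX and iBRD9 also had less Itgam, 54.6% ± 0.488, and there both Itgal (30.3% ± 1.21) and Itgax (15.1% ± 0.718) held more than in MR. The mean of dBRD9 lay between those of MR and of DEX and iBRD9, with Itgam at 61.9% ± 4.43, and dBRD9 library 3, at 66.8%, lay within the MR range. Itgb2 exceeded the sum of these α transcripts 8.57 ± 0.794 times in MR, 10.7 ± 1.2 times in dBRD9, 11.2 ± 0.641 times in DEX and iBRD9 and 20.8 ± 1.77 times in JQ1, where the α sum was 47.7 FPKM against 64 FPKM in MR. Reads left uncounted in the bases shared with Gm49368 would lower the Itgam shares and raise these multiples.

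The same shifts as ratios within a library do not depend on how libraries are scaled. Itgam over Itgax was 1.33 higher on the log2 scale in JQ1 than in MR and 0.93 lower in DEX and iBRD9 than in MR. Itgam over Itgal was lower in both, by 1.23 and 0.85 on the log2 scale. Itgb2 over Itgb1 was 1.08 higher in JQ1, and Itgb5 over Itgb7 was 2.24 higher in JQ1 and 0.35 higher in DEX and iBRD9. For each of these ratios the 3 libraries of a group lay wholly on a side of the MR libraries (exact permutation test, two-sided, p = 0.1, the smallest that 3 against 3 libraries can give, 0.15 after adjustment over the 15 ratio tests). Itga4 over Itga5 was lower in dBRD9 by 0.48 and in DEX and iBRD9 by 0.26 on the log2 scale, each wholly apart from MR (exact p = 0.1, adjusted 0.15), and in JQ1 it overlapped MR (-0.14, exact p = 0.6). In dBRD9 the ratios Itgam over Itgax (-0.51) and Itgam over Itgal (-0.41) had a p of 0.2 by the same exact test. These ratios were chosen with the genes' values known.

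The remaining integrin subunits were fewer in reads. Of 16 further α and β genes 8 passed the filter, and Itgad and Itgb6 had no count in any library. With JQ1, Itga8 fell from 15.4 to 1.81 CPM (log2 fold change -3.09 ± 0.18, adjusted p = 5.6e-15), and Itgb3, the osteoclast partner of αv, fell from 5.52 to 3.3 CPM (-0.73 ± 0.23, adjusted p = 0.008). Itga6, a laminin receptor chain, fell from 177 to 151 CPM (-0.24 ± 0.066, adjusted p = 0.0028), and Itga1, a collagen receptor chain, rose from 1.95 to 3.61 CPM (0.89 ± 0.35, adjusted p = 0.031). With dBRD9 none of the 8 was called (1 at an unadjusted p under 0.05, none by DESeq2), and with DEX and iBRD9 Itga8 alone fell, to 10.1 CPM (-0.61 ± 0.14, adjusted p = 0.017). The medians of the 8 were -0.19 with dBRD9, -0.32 with JQ1 and -0.34 with DEX and iBRD9.

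Genes that switch integrins on and tie them to actin moved both ways with JQ1. Of 21 tested, 7 rose and 4 fell, where 30% of all genes rose and 31.6% fell, and the median log2 fold change was 0.09. Pxn, the focal adhesion scaffold paxillin, rose from 158 to 272 CPM (0.78 ± 0.055), Zyx (zyxin) rose by 0.64 ± 0.068, Vcl (vinculin) by 0.54 ± 0.10 and Rap1a, a small GTPase that activates integrins, by 0.47 ± 0.068 on the log2 scale. The tensin genes fell, Tns1 from 34.4 to 12 CPM (-1.53 ± 0.12, adjusted p = 9.8e-12) and Tns3 from 482 to 255 CPM (-0.92 ± 0.06). Myo10, a motor that carries integrins into filopodia, fell by 0.77 and Vasp, an actin regulator, by 0.61 on the log2 scale. Tln1 (talin) and Fermt3 (kindlin-3), which bind β tails to activate integrins, were at 0.05 ± 0.057 and 0.06 ± 0.053 (adjusted p = 0.51 and 0.33). With dBRD9 Tns1 alone fell (-0.46 ± 0.11, adjusted p = 0.038), and with DEX and iBRD9 none of the 21 was called by edgeR (6 at an unadjusted p under 0.05, against 15.6% of all genes, and 1 by DESeq2, lower).

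In adhesion signalling 26 genes were tested, and with JQ1 8 rose and 9 fell (median -0.01), where 61.6% of all genes passed. The Src family kinases, which act just downstream of integrins, went apart. Src, needed by osteoclasts to form their resorbing border, was at 23.4, 27.3 and 26.2 CPM in MR and at 2.44, 4.39 and 3.63 CPM in JQ1. It was far lower in every JQ1 library (log2 fold change -2.86 ± 0.15, adjusted p = 2.5e-16), and Fgr fell from 42.4 to 12.5 CPM (-1.76 ± 0.10, adjusted p = 4.4e-15). Lyn was at 227, 230 and 231 CPM in MR and at 479, 483 and 492 CPM in JQ1, an increase of 1.08 ± 0.05 on the log2 scale (adjusted p = 2.1e-17). Arhgef7, an exchange factor for Rac and Cdc42, rose by 0.54 ± 0.054 while its relative Arhgef6 fell by 0.76 on the log2 scale. Git1, a partner of Arhgef7, rose from 88.2 to 114 CPM (0.38 ± 0.064, adjusted p = 8.6e-06). Skap2 rose from 233 to 294 CPM (0.33 ± 0.054) and Parvg fell from 28.7 to 16.1 CPM (-0.83 ± 0.12). With dBRD9 Lims1, an adaptor of integrin-linked kinase, fell (-0.27 ± 0.068, adjusted p = 0.042). With DEX and iBRD9 Git1 also rose (0.30 ± 0.064, adjusted p = 0.011). Neither comparison had another call by edgeR (by DESeq2, 2 lower with dBRD9, and 1 higher and 1 lower with DEX and iBRD9). Git1 in dBRD9, at 93.2, 99.5 and 108 CPM, still lay above the MR libraries, at 87.8 to 88.4 CPM.

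**Figure D4:**
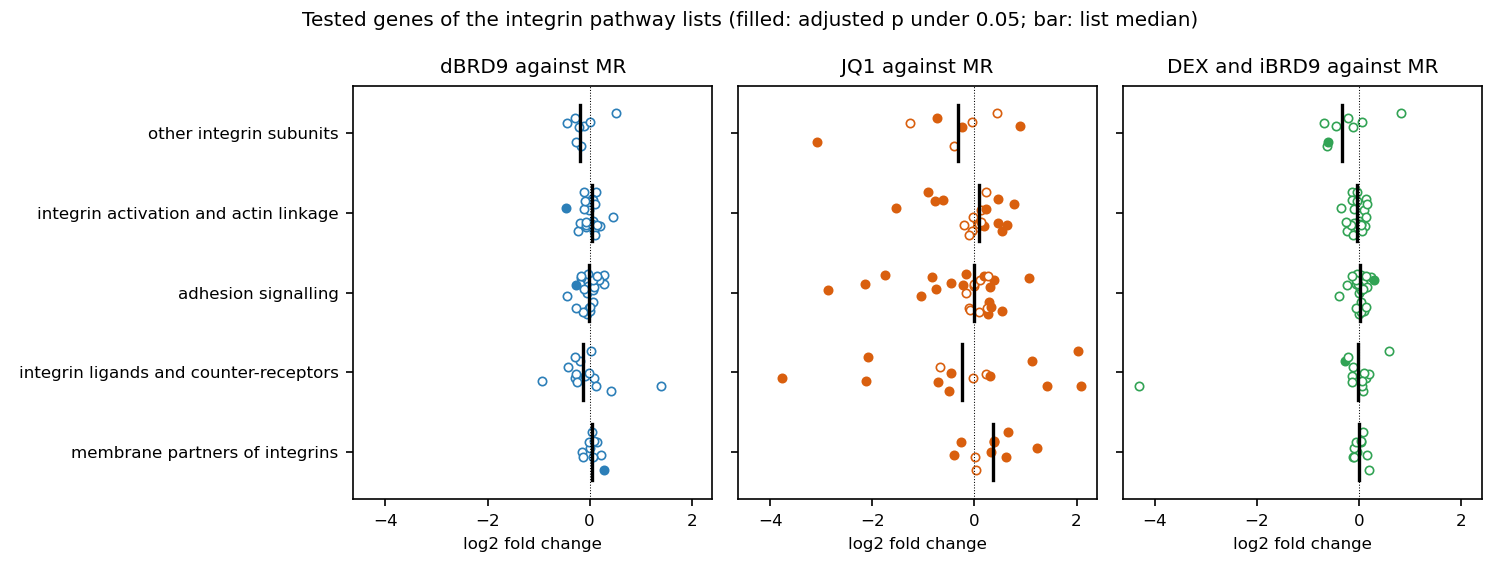
Log2 fold change against MR (horizontal axis) of every tested gene in 5 integrin pathway lists, for dBRD9, JQ1, and DEX and iBRD9; filled points passed at an adjusted p under 0.05 and the bar is the list median. With JQ1 the points spread to both sides of 0 in each list, down to -3.77 for Vcam1, and the list medians lie between -0.32 and 0.36.

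Ligands and counter-receptors in the same RNA changed with JQ1 in 11 of 14 tested genes, 5 higher and 6 lower (median -0.24). DESeq2 called 4 higher and 6 lower, and of all genes 61.6% passed the edgeR test. Vtn (vitronectin) followed the albumin division. It was at 0, 0 and 1.68 CPM in MR, 1.02 to 1.94 in dBRD9, 1.96 to 2.73 in JQ1 and 0 to 0.0566 in DEX and iBRD9. Bulk RNA does not show which cells made these transcripts. Spp1, the αv ligand osteopontin, was at 2100, 1920 and 2060 CPM in MR and at 4180, 4150 and 4940 CPM in JQ1. Its level rose by 1.13 ± 0.06 on the log2 scale (adjusted p = 8.7e-16), and it fell with DEX and iBRD9 (-0.27 ± 0.059, adjusted p = 0.013). Tgfb1, whose latent form is bound by αv integrins, rose from 383 to 1020 CPM with JQ1 (1.42 ± 0.053) and Mfge8, a bridge from αv to dying cells, from 54 to 66.9 CPM (0.31 ± 0.078). Vcam1, the counter-receptor of α4, fell from 9.08 to 0.668 CPM (-3.77 ± 0.27, adjusted p = 4e-13) and Thbs1 (thrombospondin) from 25.8 to 6.06 CPM (-2.08 ± 0.13). Icam1, a counter-receptor of the CD18 integrins, was at 237 CPM in JQ1 and 241 CPM in MR (-0.03 ± 0.052, adjusted p = 0.67). Icam2, which encodes another ICAM protein, fell from 7.29 to 5.17 CPM with JQ1 (-0.49 ± 0.18, adjusted p = 0.017). Col1a1 fell from 10.3 to 6.26 CPM (-0.72 ± 0.20, adjusted p = 0.0031). With dBRD9 none of the 14 was called by edgeR (5 at an unadjusted p under 0.05, against 16.6% of all genes, and none by DESeq2).

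Membrane proteins that sit beside integrins, mainly tetraspanins, were higher with JQ1 in 6 of 10 and lower in 2 (median 0.36). Of all genes 30% were higher and 31.6% lower. Cd81 rose from 105 to 244 CPM (1.22 ± 0.068) and Cd9 from 201 to 319 CPM (0.66 ± 0.065). Plaur, the urokinase receptor, rose by 0.62 ± 0.074 and Slc3a2, the CD98 heavy chain that binds β1 tails, by 0.39 ± 0.057 on the log2 scale. Cd63 and Cd82 fell by 0.41 and 0.26. With dBRD9 Cd37 alone was called by edgeR, and it rose (0.28 ± 0.059, adjusted p = 0.018). An unadjusted p under 0.05 was reached there by 5 of the 10, against 16.6% of all genes, and DESeq2 called 1, higher. With DEX and iBRD9 none of the 10 was called by edgeR or DESeq2. In that comparison 3 were at an unadjusted p under 0.05, against 15.6% of all genes.

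The genes whose pattern lay nearest to a member were sought among 9324 genes by the root mean square difference of log2 CPM over the 12 libraries, for the 3 members with the largest JQ1 fold changes. Nearest to Itgax were Tlr1 (0.11), Pilra (0.16) and Acsl1 (0.17), whose log2 fold changes with JQ1 were -1.84, -1.75 and -1.72. Nearest to Itgb5 were Ucp2 (0.066), Ulk2 (0.084) and Mknk2 (0.092), at 1.48, 1.46 and 1.49 with JQ1. Nearest to Itgb2 were Atg12 (0.039), Inpp5k (0.049) and Marchf2 (0.05), at 1.07, 1.10 and 1.06 with JQ1. All these patterns share the division of the JQ1 libraries from the others.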

How the data were processed

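Total RNA of BMDMs was sequenced in 12 libraries. The submitters' processing notes name cutadapt, HISAT2, HTSeq and the build GRCm39. The deposited table holds raw counts per gene, on which the tests were run, and FPKM values that the authors derived from the same counts and gene lengths, used here to compare genes and for ratios. Of 21899 gene identifiers 21700 matched the GENCODE annotation of GRCm39 and 199 did not. The strand setting is not given in the sources used here.

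Genes were filtered by filterByExpr (minimum count 10, minimum total 15), scaled by TMM and fitted in 1 model of all 12 libraries by the edgeR 4.0.16 quasi-likelihood test (robust, 8 residual degrees of freedom) in R 4.3.3 with limma 3.58.1. P-values were adjusted by Benjamini and Hochberg over the 11670 genes tested, and genes were called at an adjusted p under 0.05. The biological coefficient of variation was 7.29%. Chi-square per degree of freedom between replicates was 3.55 to 15.7, so no pair was a repeat of the same library. Nothing says that replicates came from separate cultures, so p-values measure the spread between these libraries. Alternatives were DESeq2 1.42.0 (Wald test, or its size factors in edgeR), scaling by total counts, no filter or a stricter one, fits of 6 or 9 libraries, a minimum fold of 1.2, an unadjusted p with a fold of 1.2, a term that sets apart the 7 libraries holding 100 or more counts of albumin, and leaving out each library. The scripts were tested on simulated data.

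The 10 genes, the pathway lists and the albumin term were chosen with earlier results of these data known. Genes were named by a rule that took all members. In each comparison against MR it also took, per pathway list, up to 4 called genes per direction. These had the largest fold change at a mean of 5 CPM or more. Nearest patterns were sought for the 3 members that moved most with JQ1. Itga1, Itgb3, Tln1, Fermt3, Icam1 and Vtn were named beyond it after their values were seen. Markers were listed for macrophages, osteoclasts, dendritic cells, neutrophils, hepatocytes and other cells, and some genes are not reported here. Of the other cells, the sums in JQ1 and MR were 0.504 and 2.59 CPM for T and NK cells, 0.259 and 1.38 CPM for B cells, 0.0618 and 0.0981 CPM for mast cells and basophils, 12.5 and 21.7 CPM for stromal cells and fibroblasts, 117 and 276 CPM for endothelial cells and megakaryocytes, and 0.274 and 0.265 CPM for erythroid cells. Hepatocyte markers summed to 41.9 to 48.9 CPM in DEX and iBRD9 and to 164 to 206 CPM in JQ1.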

Additional observations from a re-analysis of the deposited data

How the results depend on the processing

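In JQ1 against MR, 9 members passed in every fit that left out a library, and no member changed direction while called under any setting. The other comparisons depended on the setting. In dBRD9 against MR the members called and all genes called, 0 and 191, became 3 and 535 with no filter, 2 and 390 by DESeq2, 2 and 776 in the 6 libraries compared, 2 and 924 in 9 libraries without JQ1, and 3 and 797 at an unadjusted p with a fold of 1.2. A minimum fold of 1.2 and the albumin term each left 1 gene called in all and 0 members, and leaving out a library gave 0 to 2 members and 15 (without MR library 2) to 795 genes (without JQ1 library 1). In DEX and iBRD9 against MR, 1 and 228 became 2 and 573 with no filter, 6 and 1054 in 6 libraries, 2 and 664 in 9 libraries, 0 and 7 at a minimum fold of 1.2, and 2 and 799 at an unadjusted p with a fold of 1.2. All genes called were 364 by DESeq2 and 101 with the albumin term, and leaving out a library gave 0 to 2 members and 54 (without DEX and iBRD9 library 2) to 555 genes (without JQ1 library 1). In DEX and iBRD9 against dBRD9, 1 and 275 became 3 and 743 with no filter, 2 and 849 in 6 libraries, 3 and 960 in 9 libraries, 0 and 1 at a minimum fold of 1.2, 0 and 905 at an unadjusted p with a fold of 1.2, and 0 and 0 with the albumin term. DESeq2 called 481 genes there, and leaving out a library gave 0 to 2 members and 8 (without DEX and iBRD9 library 2) to 842 genes (without JQ1 library 1). In JQ1 against DEX and iBRD9 the albumin term gave 4282 genes against 7200. The cause of these changes was not tested. The albumin term rests on MR library 3 against MR libraries 1 and 2, so the counts called with it do not measure a part of liver RNA. No paired analysis was possible because the groups share no replicate numbers in the labels, and the library numbers used here follow deposit order and pair nothing. Intervals and tests rest on 3 libraries per group, and Itgax in JQ1 and most of the further integrin subunits rest on few reads.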
